A study of Homo sapiens with 12 samples.

Results

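The genes described here are those for which all 8 libraries of the PCa cell lines PC3 and DU145 lay above, or all lay below, all 4 libraries of the benign prostate cell line BPH-1. They numbered 6015 of the 17670 genes tested, in a table of 58302 genes. All 8 PCa libraries lay above BPH-1 for 2184 genes (12.4% of the genes tested) and below BPH-1 for 3831 genes (21.7%), and 11655 genes were neither. RNA was sequenced from 12 libraries, 4 of each line. All 3 lines were labelled wild type and were grown in DMEM with fetal bovine serum, penicillin and streptomycin, and no treatment is named. The class of PCa thus held 2 lines and the benign class 1 line, so a difference between benign and cancer cells and a difference between BPH-1 and any other line cannot be told apart. The labels do not say that the libraries of a line came from separate cultures. The p-values given below therefore measure the spread between libraries, which may be technical. The values are FPKM, reads scaled by the length of the gene and the depth of the library. The length that gave whole reads summed all distinct exons of a gene, so overlapping exons counted more than once. FPKM levels of different genes therefore do not compare directly.

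BPH-1 is an epithelial line immortalised from benign prostate tissue. PC3 and DU145 are androgen-independent lines grown from a bone and a brain metastasis of PCa. Normal prostate epithelium has a basal layer, marked by the keratins KRT5 and KRT14 and the transcription factor TP63, and a luminal layer, marked by KRT8 and KRT18. Most prostate carcinomas have luminal features and lose the basal layer.

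The labelled lines were set against these markers first. KRT18 was present in all 12 libraries, at 31.4 to 44.9 FPKM in BPH-1, 26.8 to 34.7 in PC3 and 52.8 to 99.2 in DU145. TP63 was at 11.2 to 13.8 FPKM in BPH-1 and at most 0.0542 in the PCa lines. KLK3, which encodes prostate-specific antigen, was listed at 0 in all 12 libraries.

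The libraries held between 12950665 and 16309563 reads, as recovered from the steps of the FPKM values. Some libraries stood apart within their line. In DU145, 31 genes had at least 30 reads in both of libraries 1 and 2 and at most 3 reads in both of libraries 3 and 4, while the same count was 0 to 4 for any other such split of BPH-1 or PC3. The 31 included genes of white blood cells. A list of 13 such genes, chosen after the values were seen, was detected with over 3 reads for 13 of 13 genes in all 4 BPH-1 libraries and in DU145 libraries 1 and 2. It was detected for 0 of 13 genes in DU145 libraries 3 and 4 and for at most 1 gene in PC3. Its summed level was 29.7 to 57.2 FPKM in BPH-1, 24.97 and 26.6 in DU145 libraries 1 and 2, 0.019 and 0.04 in DU145 libraries 3 and 4 and 0.03 to 0.194 in PC3. PTPRC, which encodes the leukocyte antigen CD45, had 225 to 295 reads in the BPH-1 libraries, 275 and 256 in DU145 libraries 1 and 2 and 0 in the other 6. HBB, a haemoglobin gene, had 6 to 12 reads in the same 6 libraries and 0 in the other 6. DU145 libraries 3 and 4 held 102 and 51 reads of the fibroblast gene DCN, which had 0 reads in all other libraries. The part of these cells' RNA in the results was not tested, and in bulk libraries fewer cells of a type and less RNA per cell cannot be told apart. Without DU145 libraries 1 and 2, 2493 genes lay above and 4240 below. Without DU145 libraries 3 and 4, 2355 lay above and 4016 below.

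The libraries also differed by the GC content of the transcripts. Among genes with at least 50 reads in every library, each gene's log2 level was taken relative to its own mean over all 12 libraries. For each library, the median of the 938 genes in the highest decile of GC content was subtracted from that of the 624 in the lowest. This difference, which describes libraries relative to one another, was 1.28 to 1.5 in BPH-1. It was -1.48 to -0.01 in PC3 and -2.05 to 0.41 in DU145. Genes with all PCa libraries below BPH-1 had a median GC content of 42.2%, those above 55.5%, and all genes tested 49.5%. In the lowest GC decile 1.13% of the genes lay above and 64.7% below, and in the highest decile 24.2% above and 7.25% below. When the trend of log2 FPKM with GC content was divided out of each library, 1733 genes lay above (9.81% of the genes tested) and 3530 below (20%). Of these, 1369 and 2795 were also separated in the same direction on the deposited values. In the lowest decile 8.10% then lay above and 37.3% below. The GC trend thus also differed between libraries of the same line, from -2.05 to 0.41 in DU145 and from -1.48 to -0.01 in PC3. For the difference from BPH-1, GC content acting on the sequencing and genes that differ between the lines cannot be told apart. Counts with the trend divided out are therefore given beside the counts of the gene lists below.

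**Figure D1:**
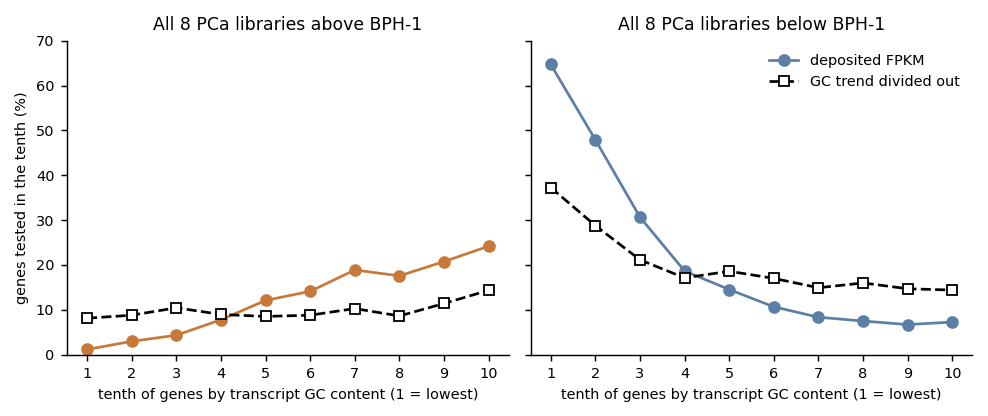
Share of the genes tested (%, vertical axis) for which all 8 PCa libraries lay above BPH-1 (left) or below it (right), by decile of genes in order of transcript GC content (horizontal axis, 1 is the lowest). Filled points are deposited FPKM and open squares are FPKM with the GC trend divided out; the share below falls from 64.7% in the lowest decile to 7.25% in the highest on the deposited values, and from 37.3% to 14.4% with the trend divided out.

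In the limma fit over all 12 libraries, the mean of both PCa lines was higher than BPH-1 for 5481 genes (31.0% of the genes tested) and lower for 6007 (34.0%), at a Benjamini-Hochberg adjusted p under 0.05 on log2(FPKM + 1). Both lines differed from BPH-1 in the same direction for 2165 genes that were higher and 4153 that were lower (1432 and 5196 with every library's FPKM brought to 1 common sum), and in opposite directions for 1029 genes. The comparisons of PC3 and DU145 with BPH-1 share the BPH-1 libraries, so the number of genes that moved together is not independent evidence that the cancer lines are alike. Of the 6015 separated genes, 6002 passed the test of the mean of both lines. Separation was often small: the smaller of the 2 lines' log2 fold changes exceeded 1 for 468 of the 2184 genes above and for 1989 of the 3831 genes below.

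The 3 highest-ranked genes above BPH-1 were KRT7, VIM and COL6A2. The leading genes were ranked by the smaller of the 2 lines' changes, and their separation is the rule by which they were taken. KRT7 (chromosome 12, 52232520 to 52252186, GRCh38), a keratin of simple epithelia, was at 1.18, 1.397, 0.873 and 0.905 FPKM in BPH-1, 66.4, 63.9, 46.4 and 64.8 in PC3 and 260.0, 199.6, 255 and 158 in DU145. Its mean level was 55.5 times that of BPH-1 in PC3 and 200.4 times in DU145, and no PCa library came near the BPH-1 range. VIM (chromosome 10, 17228259 to 17237593), the intermediate filament of mesenchymal cells, was at 1.32, 1.32, 1.11 and 1.24 FPKM in BPH-1, 144, 128, 96.8 and 114 in PC3 and 68.4, 51.4, 68.9 and 58.99 in DU145. Its log2 difference, on the log2(FPKM + 1) scale that understates the change of low genes, was 5.27 ± 0.12 (SE; limma adjusted p = 1.19e-11). COL6A2 (chromosome 21, 46098097 to 46132849), a collagen VI chain, was at 0.248 to 0.784 FPKM in BPH-1, 194 to 212 in PC3 and 23.5 to 42.4 in DU145. The neighbouring chain COL6A1 was at 3.16 to 6.93, 330.1 to 392 and 22.9 to 38.2 FPKM in the same order, so that both collagen VI chains were highest in PC3.

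Other leading genes above, taken here for their known roles, were TGM2, RHOF and FLNC. TGM2, the tissue transglutaminase that crosslinks proteins, was at 0.168 to 0.287 FPKM in BPH-1, 13.6 to 20.7 in PC3 and 23.1 to 29.02 in DU145. RHOF, a small GTPase of filopodia, was at 0.6297 to 0.793 FPKM in BPH-1, 34.3 to 55.2 in PC3 and 15.1 to 30.1 in DU145. FLNC, the actin crosslinker filamin C, was already present in BPH-1 at 5.96 to 12.96 FPKM and reached 50.1 to 102 in PC3 and 127 to 279 in DU145. Among these genes the order of the 2 cancer lines was not shared: RHOF was higher in PC3 and TGM2 and FLNC were higher in DU145.

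The leading genes above also held a cytokine, a lipid droplet gene and a detoxifying enzyme. LIF, a cytokine of the interleukin 6 family, was at 5.19, 5.2, 5.08 and 3.91 FPKM in BPH-1, 35.9, 43.8, 53.5 and 48.4 in PC3 and 103, 72.1, 98.9 and 71.2 in DU145, a mean level 9.37 and 17.8 times that of BPH-1. PLIN2, a coat protein of lipid droplets, had 2 to 10 reads per BPH-1 library (0.0181 to 0.0896 FPKM) and was at 6.41 to 10.8 FPKM in PC3 and 4.89 to 8.09 in DU145. GSTM3, a glutathione transferase, was at 0.158 ± 0.0178 FPKM (SD, n = 4) in BPH-1, 8.57 ± 1.42 in PC3 and 6.54 ± 0.846 in DU145. CLDN3, a tight junction claudin, was at 0.455 to 1.85, 52.9 to 62.8 and 9.14 to 21.8 FPKM in BPH-1, PC3 and DU145. The remaining leading genes above (TRNP1, HPCAL1, GRAMD1B, PCBD1, ANXA6, MYADM, ABCA3 and SPATC1L) had log2 differences of 2.77 for GRAMD1B to 3.45 for ANXA6. RPS28 and RPL39L, at 0.447 to 0.7002 and 0.2901 to 0.487 FPKM in BPH-1, and at 22.3 to 38.7 (median 26.1) and 15.1 to 33.6 (median 20.8) in the PCa lines, are uncertain, because both have near-identical copies between which reads can be split.

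**Figure D2:**
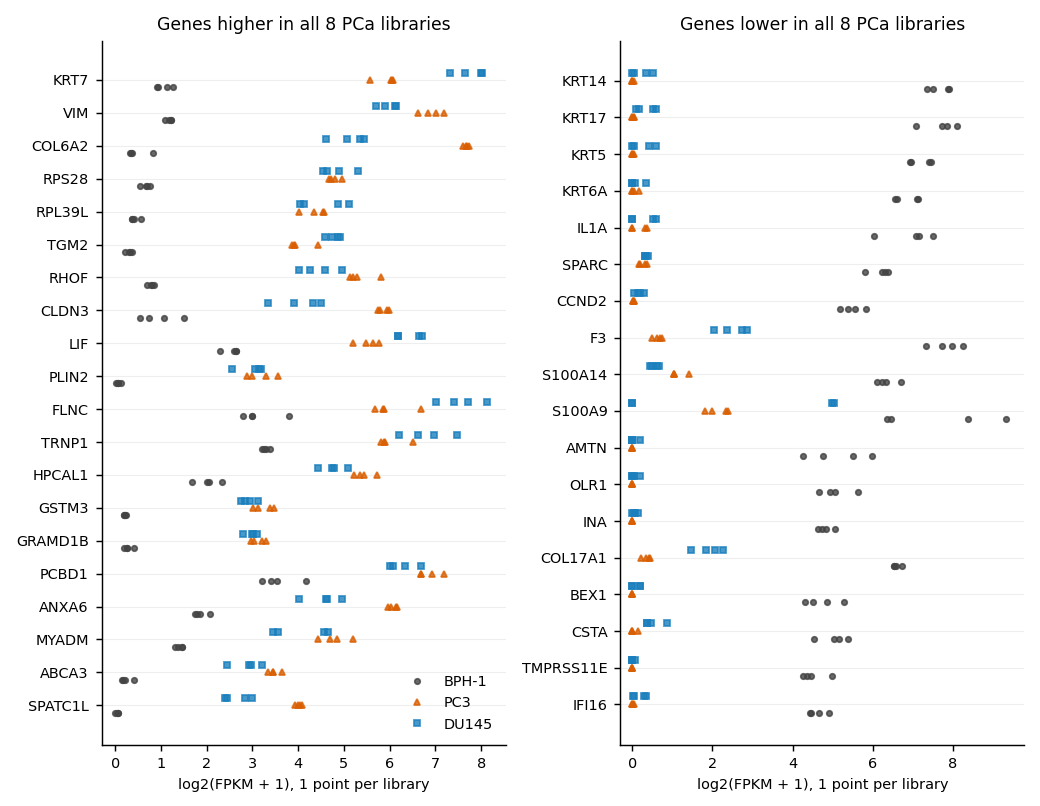
Level of the 20 highest-ranked protein-coding genes above BPH-1 (left) and of 18 of the 20 below (right), as log2(FPKM + 1) on the horizontal axis, with 1 point per library (circles BPH-1, triangles PC3, squares DU145). In every row the 8 PCa points lie on one side of the 4 BPH-1 points, which is the rule by which the genes were taken; S100A9 has DU145 libraries at 30.7 and 31.9 FPKM and at 0.

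The 4 highest-ranked genes below BPH-1 were the keratins KRT14, KRT17, KRT5 and KRT6A. KRT14 (chromosome 17, 41582279 to 41586921) was at 238, 232, 162 and 179 FPKM in BPH-1, 0, 0, 0 and 0.0265 in PC3 and 0.275, 0.442, 0.0222 and 0 in DU145. KRT5 (chromosome 12, 52514575 to 52520687), its partner in the basal keratin filament, was at 175, 120.2, 123 and 169.5 in BPH-1, 0, 0.00899, 0 and 0.0381 in PC3 and 0.342, 0.499, 0.02396 and 0 in DU145. KRT17 and KRT6A, keratins of activated and appendage epithelium, were at 135 to 273 and 93.4 to 139 FPKM in BPH-1 and at most 0.509 and 0.263 in any PCa library. The log2 differences of these 4 keratins lay between -7.53 for KRT14 and -6.77 for KRT6A (limma adjusted p = 7.89e-12 and 8.62e-12). The traces of KRT14 and KRT5 in DU145 were mostly in libraries 1 and 2, the libraries with white blood cell genes, and whether RNA of other libraries reached them was not tested.

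Further leading genes below were IL1A, F3, SPARC and COL17A1. IL1A, the alarm cytokine interleukin 1 alpha, was at 179, 141, 134 and 64.6 FPKM in BPH-1 and at most 0.52 in any PCa library. F3, tissue factor, which starts blood coagulation, was at 160.2 to 302 FPKM in BPH-1, 0.3998 to 0.687 in PC3 and 3.101 to 6.25 in DU145. SPARC, a matrix glycoprotein, was at 72.2 ± 12.1 FPKM (SD, n = 4) in BPH-1, 0.202 ± 0.0778 in PC3 and 0.268 ± 0.0288 in DU145, with no difference called between the cancer lines (log2 -0.08, limma adjusted p = 0.681). COL17A1, a hemidesmosome collagen that anchors basal cells, was at 91.6 to 105 FPKM in BPH-1, 0.156 to 0.357 in PC3 and 1.76 to 3.801 in DU145. S100A14, OLR1, AMTN, INA, BEX1, CSTA, TMPRSS11E and IFI16 had log2 differences of -4.50 for TMPRSS11E to -5.50 for S100A14.

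S100A9, a calcium-binding protein of neutrophils and of stressed squamous epithelium, is a leading gene that varied widely within BPH-1 and within DU145. It was at 80.6, 636, 87.2 and 330.5 FPKM in BPH-1, 2.54, 4.05, 4.25 and 2.94 in PC3 and 30.7, 31.9, 0 and 0 in DU145. Within DU145 it was present in the same libraries as the white blood cell genes. PTPRC had 225 to 295 reads in the BPH-1 libraries and 275 and 256 in DU145 libraries 1 and 2. S100A9 had 717 to 5603 reads in BPH-1 and 287 and 300 in those DU145 libraries. Whether white blood cells contributed to S100A9 was not tested. Its log2 difference was -5.31 ± 0.98 (SE; limma adjusted p = 4.43e-04), -6.56 without DU145 libraries 1 and 2 and -4.05 without DU145 libraries 3 and 4. The 20 leading genes in each direction were separated in the same direction with the GC trend divided out and after every library's FPKM was brought to 1 common sum.

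Lists of genes with known functions were counted next, and each count is to be read against 12.4% above and 21.7% below over all genes tested. Of 28 basal and squamous epithelial genes tested, 0 lay above and 23 below (24 with the GC trend divided out). They included, beyond the keratins, TP63 and the desmosome cadherin DSG3 (18.2 ± 5.09 FPKM, SD, n = 4, in BPH-1 against at most 0.0447 in the PCa lines). The exceptions were KRT15, KRT80, KRT81, ITGB4 and LAMB3, of which KRT81 was higher in the mean of both PCa lines (log2 4.50 ± 0.30, SE; limma adjusted p = 7.26e-08). That mean rests on PC3, where KRT81 was at 316 to 556 FPKM, against 2.75 to 7.68 in DU145 and 0.432 to 3.14 in BPH-1. The summed level of the list was 2204 to 2593 FPKM in BPH-1, 749 to 1121 in PC3 and 462 to 797 in DU145.

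Simple and luminal epithelial genes also lay mostly below. Of 25 tested, 2 lay above (KRT7 and CLDN3) and 14 below (15 with the GC trend divided out). CDH1, which encodes E-cadherin, was at 22.6, 44.6, 16.3 and 30.2 FPKM in BPH-1, 0.555, 0.746, 1.42 and 0.427 in PC3 and 0.128, 0.297, 0.0851 and 0.211 in DU145. GRHL2, a transcription factor of epithelial junction genes, was at 11.1 to 14.98 FPKM in BPH-1 and at most 0.0394 in the PCa lines, and ESRP1, the epithelial splicing regulator, at 9.995 to 13.3 against at most 0.608. EPCAM was at 57.7 to 63.2 FPKM in BPH-1, 6.92 to 11.1 in PC3 and 0.166 to 0.573 in DU145. KRT8 and KRT18 themselves overlapped between the classes.

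Of 31 genes of cadherins, desmosomes and claudins, 1 lay above (CLDN3) and 16 below, 15 with the GC trend divided out. DSP, the desmosome linker desmoplakin, was at 133 ± 29.3 FPKM (SD, n = 4) in BPH-1, 6.09 ± 3.003 in PC3 and 3.05 ± 2.596 in DU145. CDH3, the placental cadherin of basal cells, was at 37.8 to 74.2, 2.101 to 4.04 and 3.95 to 6.34 FPKM.

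Mesenchymal genes lay on both sides. Of 23 tested, 3 lay above (VIM, SNAI1 and S100A4) and 8 below (4 and 8 with the GC trend divided out). SNAI1, a repressor of epithelial genes, was at 0.154 to 0.661 FPKM in BPH-1, 3.07 to 15.1 in PC3 and 4.65 to 9.22 in DU145. Its relative SNAI2 went the other way, with 48.4 to 77.3, 5.58 to 10.96 and 3.15 to 8.49 FPKM, as did FN1, which encodes fibronectin (33.5 to 125, 6.24 to 10.6 and 0.534 to 0.995), MMP2 and CAV1. CDH2, which encodes N-cadherin, was at 26.2 to 36.7 FPKM in PC3, 3.2 to 5.96 in BPH-1 and at most 0.0671 in DU145, and so belonged to neither class.

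**Figure D3:**
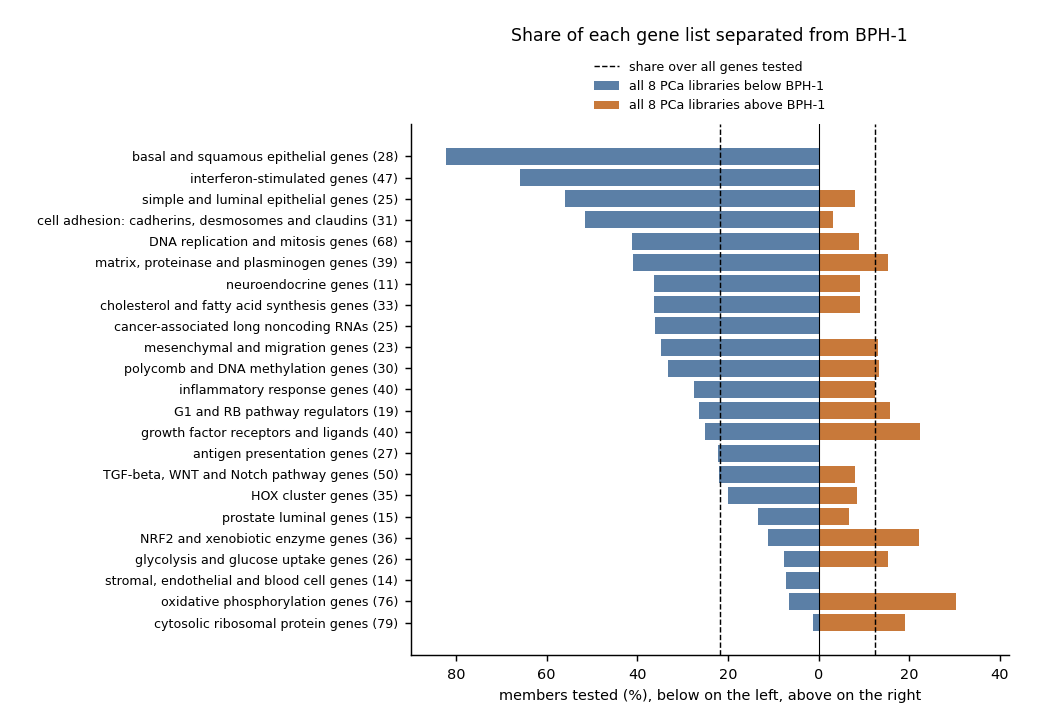
Share of the tested members of each gene list (%) for which all 8 PCa libraries lay below BPH-1 (bars to the left) or above it (bars to the right), for lists with at least 10 members tested (number in brackets). Dashed lines mark the shares over all genes tested, 21.7% below and 12.4% above; basal and squamous genes and interferon-stimulated genes reach farthest to the left and oxidative phosphorylation genes farthest to the right.

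Interferon-stimulated genes had the next largest share below BPH-1, and 0 members above. These genes are switched on when interferon activates the factor ISGF3, which binds a DNA element with a repeated GAAA core, and they encode sensors and inhibitors of viral RNA. Of 47 tested, 31 lay below BPH-1, 35 with the GC trend divided out. The count was 31 without DU145 libraries 1 and 2 and 32 without DU145 libraries 3 and 4. In the limma fit the mean of both PCa lines was lower for 41 of the 47 and higher for 1, ISG20 (log2 0.75 ± 0.19, SE; adjusted p = 0.003801). The summed level of the list was 484 to 1193 FPKM in BPH-1, 163 to 171 in PC3 and 120 to 154 in DU145. The median log2 difference was -1.76, against -0.02 over all genes tested.

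The DNA element is shown in 6 members that lay below BPH-1 and carry it, so the 6 do not stand for the whole list. Their 180 bases before the start of transcription are printed from RefSeq (GRCh38.p14), 5′ to 3′ on the strand of the gene. Capitals mark GAAANNGAAA or, on the other strand, TTTCNNTTTC, with overlapping matches counted.
IFIT1 (chr10:89392443-89392622, plus strand): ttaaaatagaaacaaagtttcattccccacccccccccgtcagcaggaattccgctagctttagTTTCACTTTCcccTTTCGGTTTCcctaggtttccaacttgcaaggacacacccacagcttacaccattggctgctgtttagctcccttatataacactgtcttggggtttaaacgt
IFIT3 (chr10:89327817-89327996, plus strand): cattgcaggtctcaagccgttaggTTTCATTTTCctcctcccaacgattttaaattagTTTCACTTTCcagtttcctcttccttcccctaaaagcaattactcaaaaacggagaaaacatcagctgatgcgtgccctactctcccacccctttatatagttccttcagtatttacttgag
IFI44 (chr1:78649609-78649788, plus strand): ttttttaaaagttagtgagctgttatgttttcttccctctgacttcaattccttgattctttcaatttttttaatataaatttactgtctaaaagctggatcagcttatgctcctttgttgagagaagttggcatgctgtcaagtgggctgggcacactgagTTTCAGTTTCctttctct
GBP1 (chr1:89065209-89065388, minus strand): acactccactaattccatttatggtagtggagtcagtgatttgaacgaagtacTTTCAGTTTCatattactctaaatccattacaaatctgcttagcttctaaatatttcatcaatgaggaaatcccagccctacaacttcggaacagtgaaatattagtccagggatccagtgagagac
DDX60 (chr4:168318753-168318932, minus strand): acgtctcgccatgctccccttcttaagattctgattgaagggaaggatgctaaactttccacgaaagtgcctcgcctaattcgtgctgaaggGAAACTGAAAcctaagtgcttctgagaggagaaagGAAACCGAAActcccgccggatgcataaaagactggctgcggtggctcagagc
BST2 (chr19:17405631-17405810, minus strand): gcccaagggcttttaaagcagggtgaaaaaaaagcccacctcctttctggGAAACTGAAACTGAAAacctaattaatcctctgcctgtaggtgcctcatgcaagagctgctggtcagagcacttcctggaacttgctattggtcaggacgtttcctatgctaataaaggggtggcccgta

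Of the 47 genes, 37 were matched to a 300-base promoter in the same table, from 250 bases before to 50 after the start. The motif was in 23 of the 37 (62.2%), against 1255 of all 35116 promoters (3.57%). Among the matched genes below BPH-1 it was in 17 of 25 (68.0%) and among the other matched members in 6 of 12 (50%). DDX58, SP110 and RSAD2 were among the matched genes below BPH-1 without the motif. Among all genes below BPH-1 with a promoter, interferon-stimulated ones included, the motif was in 115 of 2724 (4.22%). Among all genes above it was in 21 of 1413 (1.49%), and among protein-coding genes tested in 312 of 10884 (2.87%). The motif is rich in A and T, and transcripts of genes below had a lower median GC content than those above (42.2% and 55.5%). The part of GC content in these shares was not tested. A match describes the letters of the promoter and is not evidence of binding.

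The 6 genes whose promoters are printed had levels as follows. IFIT3, which binds viral RNA in a complex with IFIT1, was at 66.5, 112, 43.4 and 74.9 FPKM in BPH-1, 1.87, 1.69, 1.04 and 0.556 in PC3 and 4.91, 11.1, 1.45 and 7.71 in DU145. Its relative IFIT1 was at 13.5, 34.9, 9.16 and 15.8 in BPH-1, 1.86, 1.89, 1.403 and 0.989 in PC3 and 1.87, 2.85, 0.666 and 1.66 in DU145. IFI44 was at 18.6 to 39.1 FPKM in BPH-1, 0.249 to 0.644 in PC3 and 0.1403 to 0.346 in DU145, so that its BPH-1 mean was 61.3 and 123 times theirs. GBP1, a GTPase that attacks pathogen vacuoles, was at 10.4, 22, 6.63 and 8.22 in BPH-1 and at most 0.32 in the PCa lines. DDX60, a helicase that aids viral RNA sensing, was at 6.11, 17.1, 5.02 and 13.4 FPKM in BPH-1 and at most 0.238 in the PCa lines. BST2, which tethers budding virus, was low even in BPH-1, at 0.671, 11.7, 0.75 and 5.098 FPKM, and at 0.279, 0.635, 0.0838 and 0.193 in DU145, where library 2 came close to the lowest BPH-1 library.

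Other members differed from these. IRF9, a transcription factor of the pathway, also lay below, at 2.07 to 5.87 FPKM in BPH-1, 0.695 to 1.68 in PC3 and 0.848 to 1.37 in DU145, whereas its partner STAT2 overlapped (log2 0.31 ± 0.18, SE; limma adjusted p = 0.146). IFITM3, which blocks virus entry at membranes, also differed between the cancer lines, with 86.5 to 140.5 FPKM in BPH-1, 29.9 to 47.3 in PC3 and 0.433 to 0.9396 in DU145.

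**Figure D4:**
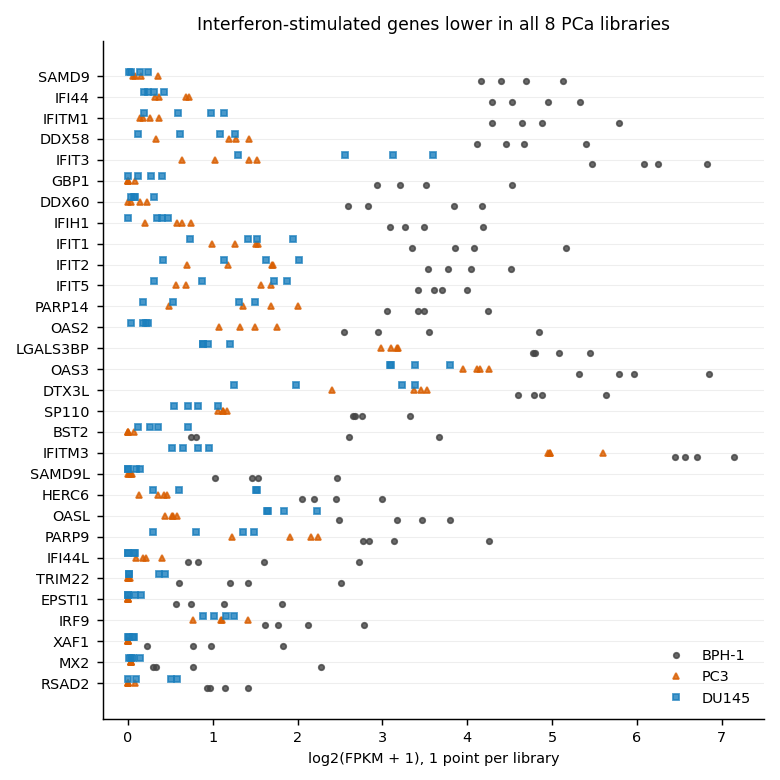
Level of 30 of the 31 interferon-stimulated genes with all 8 PCa libraries below BPH-1, as log2(FPKM + 1) on the horizontal axis, with 1 point per library (circles BPH-1, triangles PC3, squares DU145). Rows are in order of the smaller of the 2 lines' changes, from SAMD9 at the top to RSAD2 at the bottom, and in each row the 4 circles lie to the right of the other points; the separation itself is the rule by which the genes were taken.

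Of 27 antigen presentation genes tested, 0 lay above and 6 below (22.2%), and only on the deposited values was the share below near the background. With the GC trend divided out 13 lay below, and 11 with FPKM brought to 1 common sum. In the limma fit the mean of both PCa lines was lower for 18 of the 27 and higher for 0. Over all genes tested it was lower for 34.0% and higher for 31.0%. The members below included the class II genes HLA-DRA (3.91, 4.71, 3.33 and 4.06 FPKM in BPH-1, 0 in PC3 and 3.04, 3.02, 0.276 and 0.182 in DU145), HLA-DPB1 and HLA-DPA1, which white blood cells also express. The white blood cell list was present in BPH-1 and in DU145 libraries 1 and 2, and its part in these values was not tested. Inflammatory response genes were split, with 5 above and 11 below of 40 tested (6 and 10 with the GC trend divided out). Above BPH-1 were LIF, the adhesion receptor ICAM1 (10.6, 21.3, 6.75 and 6.52 FPKM in BPH-1, 65.2, 63.8, 61.9 and 61.02 in PC3 and 85.2, 73.2, 56.7 and 45.2 in DU145), the chemokines CXCL2 and CXCL3 and the signalling kinase IRAK2. Below were IL1A, TNFAIP3, an inhibitor of NF-kB signalling (17.1 ± 3.73 FPKM (SD, n = 4) in BPH-1, 2.61 ± 0.291 in PC3 and 2.35 ± 1.71 in DU145) and SAA2.

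Matrix and proteinase genes lay on both sides, with 6 above and 16 below of 39 tested (5 and 17 with the GC trend divided out). COL6A1, COL6A2, COL13A1, COL18A1, LAMA5 and TIMP2 lay above. TIMP3, an inhibitor of matrix proteinases, was at 3.02, 6.53, 4.02 and 5.85 FPKM in BPH-1, listed at 0 in all PC3 libraries and at most 0.0134 in DU145. Its relative TIMP2 was at 7.36 to 18.2 FPKM in BPH-1, 35.5 to 52.4 in PC3 and 31.8 to 46.02 in DU145. MMP9, a gelatinase, was at 4.25 to 19.2 FPKM in BPH-1 and at most 0.264 in the PCa lines.

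DNA replication and mitosis genes lay on both sides but more often below BPH-1. Of 68 tested, 6 lay above (8.82%) and 28 below (41.2%), and 4 and 32 with the GC trend divided out. In the limma fit the mean of both PCa lines was lower for 41 of the 68 and higher for 7. TYMS, the thymidylate synthase, was at 27.1, 27.4, 19.7 and 23.4 FPKM in BPH-1, 75.6, 71.7, 73.9 and 82.4 in PC3 and 75.7, 69.7, 81.3 and 56.4 in DU145. MYBL2, a transcription factor of cycling cells, and E2F1 also lay above. TOP2A, a topoisomerase of dividing cells whose transcripts have a GC content of 38.9%, was at 109, 103, 101 and 91.6 in BPH-1, 11.3, 7.39, 2.37 and 1.05 in PC3 and 2.49, 10.3, 0.943 and 6.597 in DU145. Within each cancer line its libraries differed several times over, in the order of the libraries' levels of AT-rich genes, and the part of GC content was not tested. CENPF, a kinetochore gene, and KIF11, a spindle motor, had log2 differences of -4.30 ± 0.34 and -3.60 ± 0.35 (SE).

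Among 19 regulators of G1 phase, 3 lay above and 5 below (1 and 8 with the GC trend divided out). The D cyclins CCND1 and CCND2 went in opposite directions on the deposited values. CCND2 was at 56.2, 41.04, 45.9 and 35.5 FPKM in BPH-1 and at most 0.231 in the PCa lines, with 2 to 3 reads per PC3 library. CCND1 was at 79.9, 62, 72.4 and 61.8 in BPH-1, 189.7, 183, 172 and 182 in PC3 and 113, 101, 117 and 130.5 in DU145, but was not separated with the GC trend divided out. CDK6, a kinase that both cyclins bind, was at 24.9 to 33.96 FPKM in BPH-1, 0.426 to 1.95 in PC3 and 0.176 to 1.24 in DU145. RB1 was at 11.3 to 13.8 in BPH-1, 0.475 to 3.02 in PC3 and 0.203 to 2.26 in DU145.

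Of 33 cholesterol and fatty acid synthesis genes, 3 lay above, 12 below and 18 were not separated (2 above and 17 below with the GC trend divided out). SQLE, an enzyme of cholesterol synthesis, was at 43.1 ± 12.5 FPKM (SD, n = 4) in BPH-1, 13.99 ± 2.57 in PC3 and 6.27 ± 1.09 in DU145. FADS2, a fatty acid desaturase, went up, from 0.671 to 1.07 FPKM in BPH-1 to 11.1 to 13.5 in PC3 and 5.296 to 8.65 in DU145.

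Mitochondrial and ribosomal genes lay above BPH-1 more often than below on the deposited values. Of 76 nuclear genes of oxidative phosphorylation 23 lay above and 5 below, 19 and 5 with the GC trend divided out, but 13 and 9 once every library's FPKM was brought to 1 common sum. ATP5MC2, a subunit of the ATP synthase ring, was at 3.36 ± 0.816 FPKM (SD, n = 4) in BPH-1, 10.7 ± 1.62 in PC3 and 16.96 ± 5.35 in DU145. ATP5F1B, a catalytic subunit, was at 34.2 ± 2.39, 77.4 ± 10.3 and 80.6 ± 22.8 FPKM in the same order. Of 79 cytosolic ribosomal protein genes 15 lay above and 1 below, 12 and 2 with the GC trend divided out, and 10 and 7 after bringing FPKM to 1 common sum. RPL30 went from 32.6 ± 1.56 FPKM (SD, n = 4) in BPH-1 to 123 ± 9.86 in PC3 and 106 ± 26.9 in DU145. Reads of ribosomal protein genes can be split with their many pseudogenes, so these values are uncertain. The rescaling matters because the FPKM of all genes summed to 246960 ± 2986 (SD, n = 4) in BPH-1, 298496 ± 5975 in PC3 and 293758 ± 5858 in DU145, and it moved the median log2 difference of all genes from -0.02 to -0.16.

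Of 36 NRF2 and xenobiotic enzyme genes, 8 lay above and 4 below, with and without the GC trend. ABCC3, an export pump of conjugated compounds, was at 0.342 to 0.723 FPKM in BPH-1, 7.31 to 9.3 in PC3 and 10.6 to 16.4 in DU145. TXNRD1, thioredoxin reductase, was at 28.5, 26.2, 40.6 and 33.1 in BPH-1, 77.6, 80.5, 87.6 and 68.5 in PC3 and 106, 187, 57.3 and 166 in DU145. GSTP1, a glutathione transferase that is commonly silenced in PCa, was present in all lines at 62.7 to 82.4, 39.1 to 50.8 and 27.1 to 52.2 FPKM and lay below BPH-1. Of 26 glycolysis genes 4 lay above and 2 below (3 and 4 with the GC trend divided out), with SLC16A3, a lactate exporter, at 2.46 to 3.91, 25.02 to 36.1 and 6.85 to 10.4 FPKM.

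Growth factor genes lay on both sides, with 9 above and 10 below of 40 tested (7 and 12 with the GC trend divided out). EPHA2, an ephrin receptor, was at 58.6, 47.2, 61.7 and 53.5 FPKM in BPH-1, 224, 221, 208 and 233 in PC3 and 237, 159, 300.4 and 187 in DU145, means of 4.01 and 3.998 times that of BPH-1. The EGFR ligands AREG and HBEGF lay above, while EGFR itself lay below, at 47.9, 42.1, 38.9 and 37.5 in BPH-1, 18.2, 11.6, 9.18 and 6.998 in PC3 and 5.601, 31.4, 2.33 and 31.9 in DU145. Its DU145 libraries 2 and 4 stood near the BPH-1 range and libraries 1 and 3 far from it, and PC3 lay between them. The difference between AT-rich and GC-rich genes given above was 0.41 and 0.01 in DU145 libraries 2 and 4. It was -1.32 and -2.05 in libraries 1 and 3, and in PC3 it fell from library 1 to library 4, as EGFR did. The part of GC content in the EGFR values was not tested. FGFR4 lay above, and FGFR2 and FGFR3 below. Of 50 genes of the TGF-beta, WNT and Notch pathways 4 lay above and 11 below (6 and 14 with the GC trend divided out). The WNT target AXIN2 was at 0.923 to 1.196 FPKM in PC3 and 0.1203 to 0.193 in DU145, and at most 0.0117 in BPH-1. ID4, an inhibitor of bHLH factors, was at 5.19 to 9.73 FPKM in BPH-1 and at most 0.0329 in the PCa lines.

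Lists of cell identity and chromatin genes were counted in the same way, with counts after the GC trend was divided out in brackets. Of 15 prostate luminal genes tested, 1 lay above and 2 below (1 and 1 with the GC trend divided out), with FOXA1, a pioneer factor of prostate epithelium, at 0.673, 2.897, 0.912 and 1.55 FPKM in BPH-1, 38.8, 37.6, 35.8 and 31.7 in PC3 and 5.56, 7.16, 4.996 and 7.61 in DU145. Of 11 neuroendocrine genes 1 lay above and 4 below (0 and 4), and the stem cell factor SOX2 was at 4.39, 2.37, 4.67 and 12.5 FPKM in BPH-1 and at most 0.0488 in the PCa lines. Of 35 HOX genes 3 lay above and 7 below (2 and 7). HOXB5 and HOXB6 lay above, while HOXD10 and HOXD11 were at 7.98 to 11.9 and 5.74 to 8.42 FPKM in BPH-1, listed at 0 in PC3 and at most 0.0157 and 0.0659 in DU145. Of 30 polycomb and DNA methylation genes 4 lay above and 10 below (4 and 7), with PHC2 at 4.95 to 5.65, 30.02 to 35.1 and 19.5 to 36.6 FPKM and the AT-rich SUZ12 at 9.49 to 13.3, 0.739 to 2.28 and 0.372 to 2.85. Of 4 cancer-testis antigen genes that passed the filter on low values, of 32 listed, 1 lay above, PRAME. Of 14 stromal, endothelial and blood cell genes tested 0 lay above and 1 below, CD14 (2 below with the GC trend divided out). The count depended on the DU145 libraries that carry white blood cell or stromal reads: it was 0 above and 3 below without libraries 1 and 2, and 3 above and 1 below without libraries 3 and 4. The summed level of the 25 genes listed was 20.3 to 26.4 FPKM in BPH-1, 12.8 to 22 in PC3 and 7.86 to 19.2 in DU145.

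The CLC chloride channel genes, the family that the study was built around, gave 0 separated members of 8 tested. In the limma fit the mean of both PCa lines was higher for 3 of the 8, CLCN1 and CLCN4 among them, and lower for 1, CLCN5. The largest of these log2 differences was 0.96 ± 0.09 (SE; adjusted p = 1.05e-06) for CLCN4, which was at 0 to 0.0251 FPKM in BPH-1, 2.24 to 3.57 in PC3 and 0 to 0.0193 in DU145, so that the difference rests on PC3 alone. CLCN3, a chloride-proton exchanger of endosomes, was at 2.34 to 3.4, 1.23 to 2.5 and 0.767 to 2.65 FPKM, and its classes overlapped.

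Some genes were present in 1 class and near absent from the other. With at least 10 reads in every library of one class and at most 3 in every library of the other, 56 genes were present in the PCa lines and 229 in BPH-1. PRAME, a cancer-testis antigen, was at 4.204, 4.63, 5.09 and 5.36 FPKM in PC3 and 2.88, 2.01, 3.03 and 2.43 in DU145, with 0 to 2 reads per BPH-1 library. TMEM200C, DUXAP10 and COLGALT2 had the same form, at 3.06 to 3.69, 2.75 to 3.39 and 0.797 to 1.49 FPKM in PC3 and 0.449 to 0.776, 0.273 to 0.478 and 2.59 to 4.05 in DU145. In the other direction, CDH13, an adhesion molecule without a cytoplasmic domain, was at 5.05, 10.3, 5.09 and 5.29 FPKM in BPH-1, with 0 to 1 reads per library in PC3 and 1 to 2 in DU145. TBX18, ADAMTS12 and FAM83B were at 6.83 to 7.87, 4.71 to 6.62 and 13.4 to 20.2 FPKM in BPH-1 and had at most 2 reads in any PCa library.

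Zinc finger genes of chromosome 19 stood out among the 56 after the values were seen. Of the 56, 14 lay on chromosome 19 (25%), which holds 1215 of the genes tested (6.88%), and 13 of these carried a ZNF name: ZNF677, ZNF320, ZNF468, ZNF667, ZNF667-AS1, ZNF347, ZNF433-AS1, ZNF726, ZNF28, ZNF528, ZNF808, ZNF701 and ZNF321P. Of the 229 genes present in BPH-1 alone, 13 lay on chromosome 19 (5.68%), and 0 of these 13 carried a ZNF name. The prefix does not cover all zinc finger genes, and the 13 included ZIK1 and ZBTB32. ZNF597 and ZNF750, on other chromosomes, were also among the 229. Zinc finger genes of this family are close relatives, so reads split between them make single values uncertain. ZNF677 was at a mean of 0.00212 FPKM in BPH-1, 0.798 in PC3 and 0.871 in DU145. Over the whole family, of 204 protein-coding ZNF genes of chromosome 19 tested, 26 lay above (12.7%) and 42 below (20.6%), near the shares over all genes (25 and 35 with the GC trend divided out).

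Among genes that do not encode proteins, UCA1, a long noncoding RNA, was the leading one below, at 40.4, 65.02, 27.3 and 47.6 FPKM in BPH-1, 0, 0.0461, 0 and 0 in PC3 and 0.273, 0.426, 0.0409 and 0.0706 in DU145. Of 25 cancer-associated long noncoding RNAs tested 0 lay above and 9 below (7 with the GC trend divided out), and these included the AT-rich MALAT1 at 26.6, 30.4, 35.7 and 33.1 FPKM in BPH-1, 3.44, 5.33, 3.14 and 0.366 in PC3 and 2.23, 13.9, 1.06 and 13.4 in DU145. AC004704.1 and AC010733.2 were at 8.46 to 13.6 and 8.42 to 11.05 FPKM in BPH-1 and at most 1.05 in the PCa lines. AC245041.1 and the pseudogene HNRNPA1P33 lay below BPH-1 too. Above BPH-1 were the antisense genes PRRT3-AS1 (13.96 to 19.2 FPKM in PC3 and 7.69 to 12.5 in DU145, with 0 to 2 reads per BPH-1 library) and AC093673.1, AP001972.5, and the pseudogenes RPSAP54 and RPSAP15. The use of strand is not given in the sources used here, so the antisense genes are uncertain, and the pseudogenes share reads with their parent genes.

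The shares of separated genes differed by chromosome. On chromosome 21, 49 of 193 genes tested lay above (25.4%) and 18 below (9.33%), and COL6A1, COL6A2 and SPATC1L are 3 of its genes above. On chromosome X, 28 of 619 lay above (4.52%) and 204 below (33.0%). With the GC trend divided out, chromosome 21 had 21.8% above and 9.84% below, and chromosome X 4.68% above and 31.5% below. Chromosomes 4 and 13, with median GC contents of 43.9% and 44.1%, had 35.9% and 36.1% below, and the GC-rich chromosome 19 had 10.3% below. With the GC trend divided out these were 26.4%, 23.8% and 14.7%, against 20% over all genes tested. The copy number of these chromosomes in the 3 lines was not measured.

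**Figure D5:**
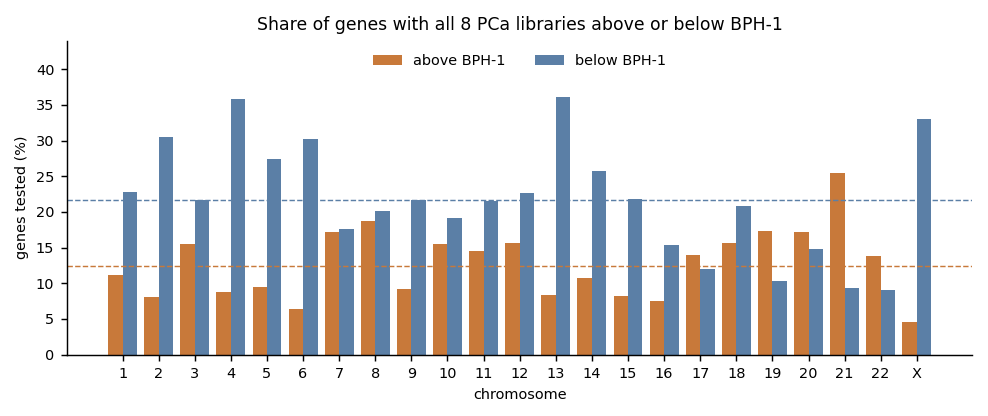
Share of the genes tested on each chromosome (%, vertical axis) for which all 8 PCa libraries lay above BPH-1 (orange bars) or below it (blue bars), on deposited FPKM. Dashed lines mark the shares over all genes tested, 12.4% above and 21.7% below; chromosome 21 has 25.4% above and chromosome X 33.0% below.

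The separated genes were also compared between the cancer lines. PC3 and DU145 differed in the limma fit for 8874 of the genes tested (50.2%). Among the genes above BPH-1 they differed for 1096 (50.2% of the 2184), the same share as over all genes tested, of which 446 were higher in PC3 and 650 in DU145. Among the genes below they differed for 776 (20.3% of the 3831). With FPKM brought to 1 common sum, 707 genes above and 1046 below differed. A gene that is near 0 in both lines has little room to differ, so these shares do not compare like levels. The largest differences among the leading genes were those of COL6A2 (log2 2.56, PC3 over DU145) and, in the other direction, F3 (-1.86) and KRT7 (-1.82). In contrast, 387 genes had all PC3 libraries above and all DU145 libraries below BPH-1, and 674 the reverse.

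The genes nearest to the edge of separation are given without a test. Just inside above was AGPAT2, at 6.55 to 10.1 FPKM in BPH-1 and 10.1 to 24.6 (median 15.2) in the PCa libraries. Outside above, the rule took ZNF385D and ZC4H2 only because their BPH-1 and DU145 libraries tied at 0. Both were listed at 0 in all BPH-1 libraries and in at least 3 DU145 libraries. In PC3 they were at 1.11 to 1.52 and 2.203 to 2.48 FPKM, so these 2 genes were high in PC3 alone and not close to separation. Just inside below were ANKRD28, at 2.69 to 3.35 FPKM in BPH-1 and 0.337 to 2.69 (median 1.77) in the PCa libraries, and YEATS4, at 12.5 to 15.6 and 2.88 to 12.5 (median 5.39). Just outside below were THADA, at 2.61 to 3.23 and 0.489 to 2.61 (median 2.13), and OXR1, at 1.64 to 2.26 and 0.266 to 1.64 (median 0.711).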

How the data were processed

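RNA of 12 libraries was sequenced after TRIzol extraction and a NEB library kit. The submitters' processing notes name CASAVA 1.8, HISAT2 2.1.0, edgeR and GRCh38. The authors deposited 1 table of 58302 genes whose values were taken to be FPKM, since its header names no unit. The values were whole multiples of 1 read for 95.9% to 96.8% of low values (tolerance 0.02 read), which gave 12950665 to 16309563 reads per library. Precision is limited by reads for genes near the filter. Lengths and positions came from GENCODE 29 (56610 genes). After scaling to the median depth, the 17670 genes with 10 or more reads in 4 or more libraries and 15 or more in total were tested. log2(FPKM + 1) was fitted with limma 3.58.1 (R 4.3.3), with line means, an intensity trend and Benjamini-Hochberg adjustment. A count test had been planned only if counts were deposited. No fold is given where a library had 3 reads or fewer. Named genes were the 20 protein-coding and 5 other genes per direction with the largest smaller-line change, the 5 most abundant genes present in 1 class alone, the 2 on each side of the edge, and up to 4 separated members of each list and direction, from which examples are given. Genes outside this rule were named for their roles after their values were seen. Members and lists were chosen with earlier results of these data known. The limma fit, the depth recovery and the GC step were tested on simulated data. Alternatives covered scaling, GC content, filters, pseudocount, voom, replicate block and left-out libraries. Promoters came from RefSeq (GRCh38.p14). Values of some genes are not reported here.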

Additional observations from a re-analysis of the deposited data

Results flagged for a closer look

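Among 38 leading genes, a library stood apart from the other 3 of its line, by the ratio of its gap to the range of the line, in 13 of 114 groups of 4 libraries. The threshold gives about 1 in 20 by chance for independent, normally distributed values. FPKM near 0 and groups that share libraries are not such values, so the 13 cannot be read as an excess. The lowest library stood apart for KRT7 in PC3 (replicate 3, ratio 0.877) and LIF in BPH-1 (replicate 4, 0.911). In BPH-1 the highest library was replicate 2 for COL6A2 (0.932), FLNC (0.857) and COL17A1 (0.834). In PC3 it was replicate 4 for TGM2 (0.919), FLNC (0.86), TRNP1 (0.903), KRT14 (1.0) and CSTA (1.0), and replicate 3 for S100A14 (0.993). In DU145 it was replicate 2 for AMTN (1.0) and replicate 1 for TMPRSS11E (1.0). The ratios of 1.0 are of genes at or near 0 in the other libraries of the line.

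PC3 and DU145, each set against the same BPH-1 libraries, differed from each other for 19 of these 38 genes in the limma fit at an adjusted p under 0.05. PC3 was higher for 11. On the log2(FPKM + 1) scale the PC3 minus DU145 differences of genes above BPH-1 were 0.95 for VIM, 2.56 for COL6A2, 0.9 for RHOF, 1.86 for CLDN3, 0.67 for HPCAL1, 0.6 for PCBD1, 1.53 for ANXA6, 0.74 for MYADM, 0.59 for ABCA3 and 1.35 for SPATC1L. They were -1.82 for KRT7, -0.75 for TGM2, -0.91 for LIF, -1.54 for FLNC and -0.79 for TRNP1. Among genes below BPH-1 they were 0.57 for S100A14, -1.86 for F3, -1.56 for COL17A1 and -0.48 for CSTA.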

How the results depend on the processing

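The 48 leading genes reported kept their direction and their side of the threshold under every alternative in which they were tested. The counts moved by over 1.5 times in few settings. Bringing every library's FPKM to 1 common sum gave 1421 genes above BPH-1, of which 707 differed between the cancer lines, 1432 genes higher in both lines, and the stricter filter 2523 below. A fit of 2 groups called 7598 genes (2783 higher and 4815 lower) in place of 11488. Requiring a log2 fold change beyond 1 gave 468 genes above, 1989 below, 3982 for the mean of both lines (1274 higher and 2708 lower), 2498 for both lines (476 and 2022), 507 separated genes that differed between PC3 and DU145, 204 separated list members (main 332) and 2224 separated protein-coding genes (main 5125). The share of separated genes that lay above was 36.3%, and was 22.9% with 1 common sum, 44.7% with upper-quartile scaling and 38.8% with median-of-ratios scaling. Leaving out each library in turn gave 2208 to 2514 genes above, 3864 to 4126 below, 10561 to 12026 for the mean of both lines, 5667 to 6760 for both lines, 1602 to 2125 that differed between the cancer lines, 335 to 355 list members and 5185 to 5584 protein-coding genes. Libraries of PC3 and DU145 with the same number did not all deviate together from their line means (correlations of -0.464, 0.515, 0.047 and -0.655). With unlike numbers the correlations reached -0.661 and 0.701. The libraries' GC trends were not removed from these values, so they cannot show whether the numbers pair samples. With the replicate block, 11100 genes were called for the mean of both lines, 5959 for both lines and 1700 separated genes differed between the cancer lines. Leaving out DU145 libraries 1 and 2, or 3 and 4, chosen after seeing the data, gave 11320 and 11255 genes for the mean of both lines. Depth limits genes near the filter. The GC trend differed between libraries of the same line too, and for the difference from BPH-1, GC content and line cannot be told apart.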
